A study of Mus musculus with 6 samples.

Results

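The synaptic vesicle release machinery is described here as 56 genes among the 16703 genes measured by RNA-seq in hippocampi of young and aged mice. The rule that picks the genes uses names and no measured value, although it was set with earlier results of these data known. It takes genes of the synaptotagmin (Syt), syntaxin (Stx), syntaxin-binding (Stxbp), VAMP or synaptobrevin (Vamp), synapsin (Syn), complexin (Cplx) and RIM (Rims) families. Their names are the family prefix and a number, after which a letter from a to d may stand. Stxbp5l, which ends in another letter, is thus not among the 56 and is given with the other presynaptic genes. Snap25, Syp, Sv2a, Sv2b and Unc13a are taken as well. A reference list of mouse gene names holds 61 genes that fit this rule, of which Cplx4, Stx11, Stx19, Syt8 and Vamp9 are not in the analysed table. All 56 genes were matched to that list by Ensembl gene ID.

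A nerve terminal releases transmitter when a synaptic vesicle fuses with the plasma membrane. Fusion is driven by SNARE proteins, which zip together from the vesicle (VAMP2) and the target membrane (a syntaxin and SNAP-25) with the help of Munc13 (Unc13a), while complexins clamp and assist the complex and synaptotagmins couple it to calcium entry. RIM proteins hold primed vesicles beside calcium channels at the active zone, and synapsins tether the reserve pool of vesicles; many other syntaxins and VAMPs belong to the same families but serve the Golgi, endosomes or non-neuronal cells.

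The study compared whole hippocampus from 3 young mice (3 months old) with that from 3 aged mice (20 months old), all male C57BL/6 with no further treatment or allele named, with 1 library of poly(A) RNA per mouse. According to its methods the replicates were picked from an earlier qPCR assay, with no criterion given. The unit used throughout is CPM, counts scaled to the same total in every library, after the authors had removed a factor of unwanted variation, so the totals of the values are not the sequencing depth, which is unknown. A gene was called when its adjusted p, from limma with Benjamini-Hochberg adjustment over all 16703 genes, was below 0.05. Fold changes are aged relative to young on the log2 scale.

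Over all genes, 331 were called, or 1.98%, of which 200 were higher and 131 lower in the aged hippocampus, and 118 of them differed by at least 1.5-fold. This count lay between 89 and 300 when 1 library at a time was left out, and it was 89 without young replicate 1, 143 without aged replicate 1, 135 without aged replicate 2 and 126 without aged replicate 3. Markers of neurons were plentiful in every library, with a summed level of 10 pan-neuronal genes of 4548 to 4717 CPM.

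None of the 56 release machinery genes was called by limma. In bulk tissue, fewer cells of a type and less RNA per cell cannot be told apart. At an unadjusted p under 0.05 there were 11, against 14.9% of all genes. These 11 were 19.6% of the 56. They comprised 10 genes with higher values in the aged mice (Rims2, Stxbp6, Vamp5, Syt1, Vamp2, Syt4, Syt7, Syt2, Stxbp3 and Snap25), where 8.00% of all genes stood on that side, and 1 gene with lower values (Syt17), where 6.87% did. With a mean of at least 20 CPM, 19.1% of the release machinery genes were higher at that p, against 9.09% of all genes of that level. On the lower side these shares were 2.13% and 9.49%. The 3 young and 3 aged values did not overlap for 14 of the 56, or 25.0%, against 27.2% of all genes. In 11 of these 14 the aged values were the higher ones (14.5% of all genes) and in 3 the lower ones (12.7% of all genes). A fit without the term for the removed direction of variation called 1 gene, Stxbp6, and a fit without a trend of the variance with level left 3 at an unadjusted p under 0.05.

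The intervals of these genes were narrow. The 95% interval of the fold change lay inside 1.5-fold in either direction for 52 of the 56 genes, or 92.9%, against 72.2% of all genes, and inside 1.2-fold for 37, or 66.1%, against 38.6% of all genes. The exceptions at 1.5-fold were Vamp5, Syt10, Syt15 and Cplx3, each below 6 CPM on average. The 56 genes had a median level of 80.4 CPM, while all genes had one of 19.1 CPM. The contrast was small where levels were compared at 20 CPM or more: all 47 release machinery genes and 99.1% of the 8196 genes of that level had intervals inside 1.5-fold, and the median size of the log2 fold change was 0.06 and 0.07. The fold change was positive in 35 of the 56 genes, or 62.5%, against 51.4% of all genes, with a median of 0.03 against 0.00491 over all genes. At 20 CPM or more it was positive in 31 of the 47 release machinery genes, or 66.0%, against 47.3% of genes of that level. The medians there were 0.03 and -0.00691. With choroid plexus markers as a covariate the median of the 56 was 0.00255. That fit left 2 residual degrees of freedom, and the SE of Syt1, for example, was 0.0646 in place of 0.0366. All 10 choroid plexus genes listed were lower in aged mice at an unadjusted p under 0.05 (limma). The covariate is thus tied to age, and this fit cannot fully tell them apart.

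**Figure D1:**
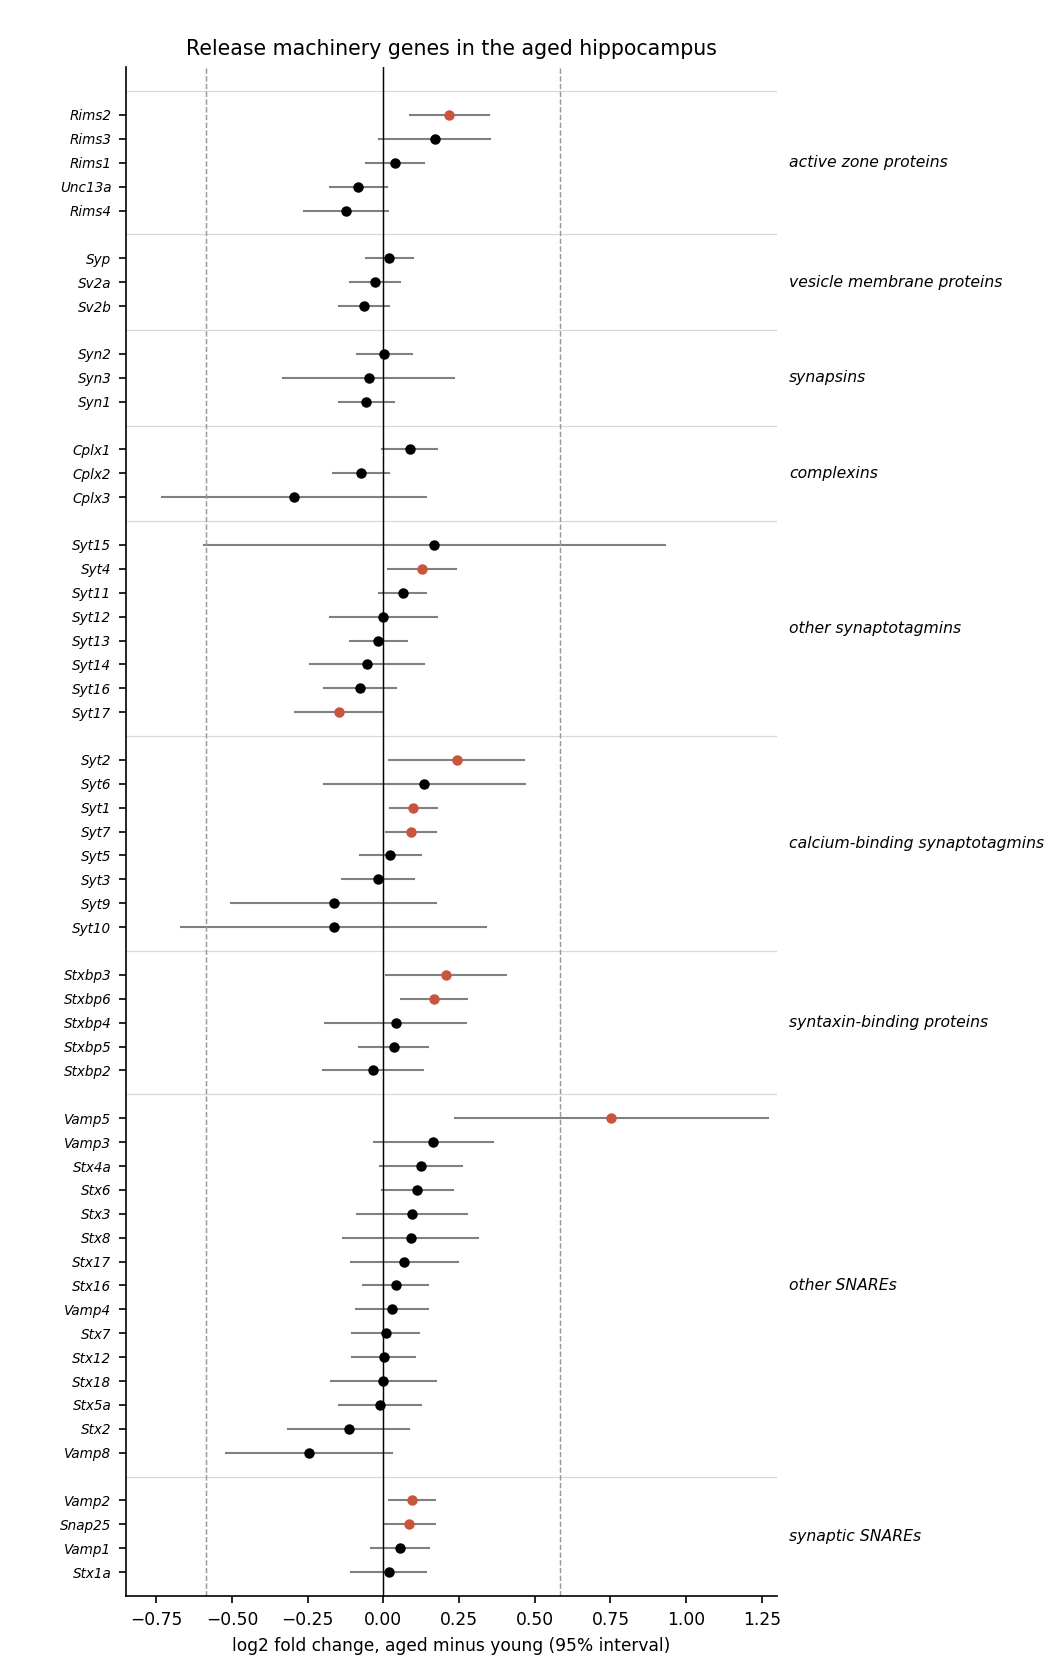
Log2 fold change of aged against young (points) with its 95% interval (lines) for 54 of the release machinery genes, grouped by role; red points mark the 11 genes at an unadjusted p under 0.05, none of which was called after adjustment, and dashed lines mark 1.5-fold. The intervals of 50 of them lie inside the dashed lines, and those of Vamp5, Syt10, Syt15 and Cplx3 cross them.

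The 5 synaptic SNAREs, which form the fusion complex itself, all had positive fold changes, with a median of 0.05. Vamp2, the main vesicle SNARE of forebrain synapses, measured 1084, 1092 and 1086 CPM in young replicates 1, 2 and 3 and 1171, 1149 and 1163 CPM in aged replicates 1, 2 and 3. The highest young value exceeded the lowest by 0.669%, and all aged values were above them. The fold change was 0.09 ± 0.04 (SE, n = 3 per group), or 6.77% higher with a 95% interval of 1.31% to 12.5%, and was not called (adjusted p = 0.216, limma).

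Snap25, the plasma membrane SNARE that supplies a pair of helices to the complex, measured 1663, 1612 and 1623 CPM in the young and 1810, 1677 and 1711 CPM in the aged mice. The groups did not overlap, and aged replicate 1 was the highest library. Its fold change was 0.09 ± 0.04 (95% interval 0.00118 to 0.17, adjusted p = 0.330), and it was 0.0503 without aged replicate 1 and 0.159 without aged replicate 3. Vamp1, a close relative of Vamp2, also had groups that did not overlap, with 143 to 148 CPM in the young and 150 to 153 CPM in the aged mice and a fold change of 0.05 ± 0.05.

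Stx1a, a plasma membrane syntaxin that partners these proteins, measured 96.5, 94.4 and 84.6 CPM in the young and 92.2, 92.6 and 93.5 CPM in the aged mice, so that the aged values lay inside the young range. Its fold change was 0.02 ± 0.06 (95% interval -0.11 to 0.14, adjusted p = 0.926), and it ranged from -0.0412 to 0.0559 over the alternative fits.

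**Figure D2:**
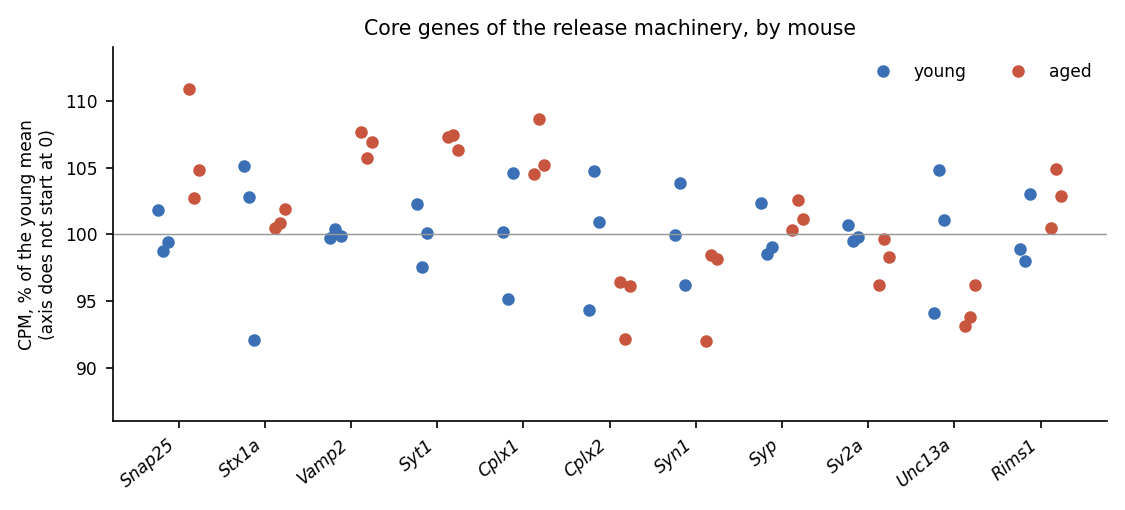
CPM of 11 core genes in each mouse as a percentage of that gene's young mean (blue, young; red, aged; 3 mice per group; the axis does not start at 0). Aged points stand apart from and above young points for Snap25, Vamp2 and Syt1, and the groups overlap for the other 8 genes.

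Among the 6 syntaxin-binding genes, 5 had positive fold changes, with a median of 0.04. Stxbp6, or amisyn, which carries a SNARE-like motif and binds syntaxin and SNAP-25, measured 99.0, 97.4 and 92.4 CPM in the young and 107, 109 and 109 CPM in the aged mice. No aged value fell within the young range. The fold change was 0.17 ± 0.05, or 12.3% higher with a 95% interval of 4.21% to 21.1%, and missed the threshold (adjusted p = 0.121). It was the 1 member called in any of 15 alternative fits, at an adjusted p of 0.0496 without the term for the removed direction, and its adjusted p ranged from there to 0.697 over the 15.

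Stxbp3, or Munc18c, the partner of syntaxin-4 in regulated exocytosis outside synapses, measured 21.0, 22.7 and 21.1 CPM in the young and 27.5, 22.6 and 24.8 CPM in the aged mice, with a fold change of 0.21 ± 0.09 (adjusted p = 0.317). Aged replicate 2 fell below young replicate 2, so that the groups overlapped, and the fold change was 0.126 without aged replicate 1 and 0.318 without aged replicate 2.

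Of the 8 synaptotagmins that bind calcium through their C2 domains, 5 had positive fold changes, with a median of 0.06 and a range from -0.16 (Syt10) to 0.24 (Syt2). Syt1, the calcium sensor of fast synchronous release in forebrain neurons, measured 1431, 1365 and 1401 CPM in the young and 1501, 1502 and 1487 CPM in the aged mice. Every aged value was above every young value. The fold change was 0.10 ± 0.04, or 7.04% higher with a 95% interval of 1.42% to 13.0% (adjusted p = 0.212). Syt7, a slower calcium sensor known for facilitation and asynchronous release, had values of 422 to 436 CPM in the young and 448 to 461 CPM in the aged mice, groups that did not overlap, and a fold change of 0.09 ± 0.04 (adjusted p = 0.280), which was 0.0399 without aged replicate 3.

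Syt2, the fast sensor that takes the place of Syt1 in many inhibitory and hindbrain neurons, measured 36.5, 26.8 and 34.0 CPM in the young and 35.7, 42.2 and 36.6 CPM in the aged mice. The groups overlapped, and young replicate 2 lay well below the other 5 libraries. Its fold change was 0.24 ± 0.10 (95% interval 0.02 to 0.46, adjusted p = 0.290), and it ranged from 0.09 to 0.48 over the alternative fits. Syt6, Syt9 and Syt10 stood at 2.27 to 8.39 CPM over all libraries, and their 95% intervals reached from -0.67 to 0.47.

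The 8 other synaptotagmins, which bind calcium weakly or not at all, had 3 positive fold changes and a median of -0.00869. Syt4, found on dense-core and neuropeptide vesicles, measured 159, 142 and 146 CPM in the young and 169, 159 and 159 CPM in the aged mice. Young replicate 1 and aged replicate 3 were level, so that the groups met. The fold change was 0.13 ± 0.05, or 9.24% higher with a 95% interval of 1.06% to 18.1% (adjusted p = 0.266).

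Syt17, a synaptotagmin without a transmembrane segment, was the 1 gene on the lower side at an unadjusted p under 0.05. It measured 80.9, 77.9 and 93.5 CPM in the young and 73.1, 79.6 and 74.9 CPM in the aged mice, with a fold change of -0.15 ± 0.07 (adjusted p = 0.336). The groups overlapped through aged replicate 2, and the fold change was -0.0663 without young replicate 3 and -0.0879 without aged replicate 3. Syt11, known as a brake on endocytosis, had groups that did not overlap (786 to 806 CPM in the young, 828 to 843 CPM in the aged mice) at a fold change of 0.06 ± 0.04, and Syt16 had the opposite arrangement (72.6 to 78.7 CPM against 70.5 to 72.4 CPM) at -0.08 ± 0.06.

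**Figure D3:**
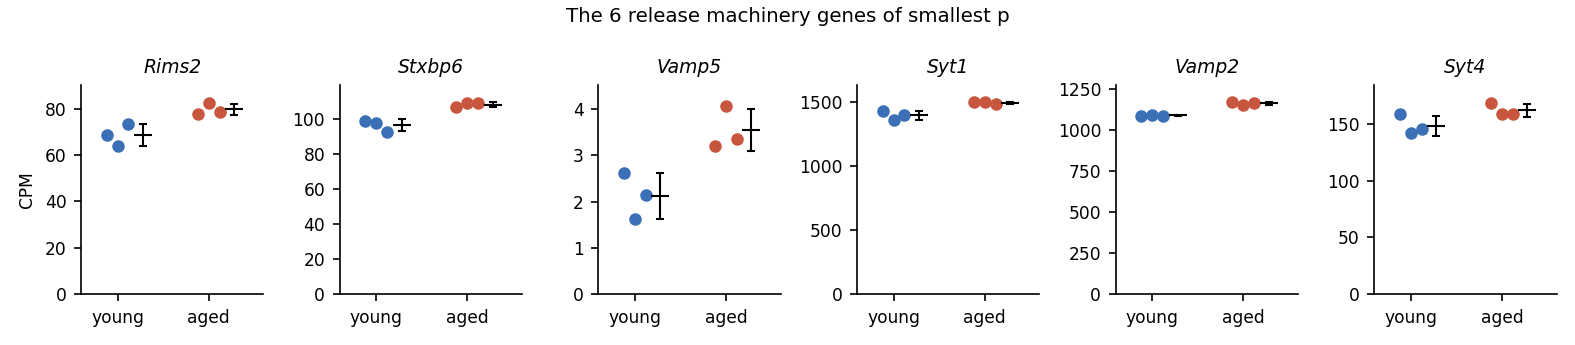
CPM per mouse (points; blue, young; red, aged) with mean and SD (black; n = 3) for the 6 release machinery genes of smallest p, none of them called; each axis starts at 0. For Rims2, Stxbp6, Vamp5, Syt1 and Vamp2 all aged points lie above all young points, and for Syt4 the lowest aged point meets the highest young point.

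The complexins did not all stand on the same side. Cplx1, the isoform prominent in inhibitory neurons, measured 539, 512 and 563 CPM in the young and 562, 584 and 566 CPM in the aged mice, with a fold change of 0.09 ± 0.04 (95% interval -0.00456 to 0.18, adjusted p = 0.365). Cplx2, the isoform prominent in excitatory neurons, measured 1528, 1697 and 1634 CPM in the young and 1562, 1493 and 1556 CPM in the aged mice, with a fold change of -0.07 ± 0.04 (95% interval -0.17 to 0.02, adjusted p = 0.457). Both genes overlapped between the ages. Without young replicate 2 the fold change was 0.0476 for Cplx1 and -0.0357 for Cplx2, and without aged replicate 2 it was 0.0575 and -0.0405. Cplx3 was low, at 3.96 to 7.47 CPM over the 6 libraries, with a fold change of -0.30 ± 0.20.

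The log2 ratio of Cplx1 to Cplx2 within each library did separate the ages: it was -1.50, -1.73 and -1.54 in the young and -1.47, -1.35 and -1.46 in the aged mice, a difference of 0.16. A ratio within a library does not depend on how the libraries were scaled. It was 1 of 12 ratios of related genes that were chosen after their values had been seen, so no test is given. In 7 of the 12 ratios, among them Vamp1 to Vamp2, Syn1 to Syn2 and Sv2a to Sv2b, the ages overlapped.

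Synapsins and vesicle membrane proteins showed small differences. Syn1, a phosphoprotein that tethers vesicles to each other and to actin, measured 607, 631 and 585 CPM in the young and 559, 598 and 596 CPM in the aged mice. The groups overlapped and the fold change was -0.06 ± 0.04 (95% interval -0.15 to 0.04, adjusted p = 0.603). Syn2 measured 690 to 761 CPM in the young and 702 to 734 CPM in the aged mice, and Syn3 stood at 10.0 to 13.3 CPM over all libraries, with overlap in both.

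Syp, the abundant vesicle protein synaptophysin that is widely used as a synapse marker, measured 1560, 1502 and 1510 CPM in the young and 1529, 1563 and 1541 CPM in the aged mice, with overlap. Its fold change was 0.02 ± 0.04, and the 95% interval allowed 3.94% lower to 6.98% higher (adjusted p = 0.854). Sv2a, the vesicle glycoprotein to which the antiepileptic levetiracetam binds, measured 462, 457 and 458 CPM in the young and 442, 458 and 451 CPM in the aged mice, with overlap and a fold change of -0.03 ± 0.04 (95% interval -0.11 to 0.05, adjusted p = 0.792). Its relative Sv2b was 1 of the 3 genes whose aged values all lay below the young ones, at 443 to 451 CPM against 455 to 473 CPM, with a fold change of -0.06 ± 0.04 (adjusted p = 0.483).

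The 5 active zone genes had fold changes from -0.12 (Rims4) to 0.22 (Rims2), with a median of 0.04. Rims2, which encodes RIM2, a scaffold that binds Rab3 on vesicles, Munc13 and calcium channels, had the smallest p of all 56 genes. It measured 68.8, 63.9 and 73.5 CPM in the young and 78.0, 82.6 and 78.9 CPM in the aged mice, so that the groups did not overlap. The fold change was 0.22 ± 0.06, or 16.3% higher with a 95% interval of 6.17% to 27.4%, and it was not called (adjusted p = 0.0940). Over the 15 alternative fits the adjusted p ran from 0.0521, without young replicate 3, to 0.628, and the fold change was positive in all 15.

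Rims1, which encodes the related scaffold RIM1, measured 176, 174 and 183 CPM in the young and 178, 186 and 183 CPM in the aged mice, with overlap and a fold change of 0.04 ± 0.05 (95% interval -0.06 to 0.13, adjusted p = 0.749). Unc13a, or Munc13-1, which opens syntaxin to prime vesicles, measured 408, 455 and 439 CPM in the young and 404, 407 and 417 CPM in the aged mice. The groups overlapped only through young replicate 1, and the fold change was -0.08 ± 0.04 (95% interval -0.18 to 0.01, adjusted p = 0.422). It was -0.0432 without young replicate 2, -0.127 without young replicate 1 and -0.184 without aged replicate 3.

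Rims3 and Rims4 encode short RIMs that keep only the C-terminal C2 domain of the family. Rims3 measured 75.7, 60.7 and 77.4 CPM in the young and 74.4, 87.7 and 77.4 CPM in the aged mice (fold change 0.17 ± 0.09), and Rims4 measured 71.7, 69.6 and 81.0 CPM in the young and 66.6, 70.0 and 67.1 CPM in the aged mice (fold change -0.12 ± 0.06). Neither gene alone separated the ages or was called. The Rims3 fold change was 0.0443 without young replicate 2 and 0.0536 without aged replicate 2, and that of Rims4 was -0.0569 without young replicate 3 and -0.0642 without aged replicate 3. The log2 ratio of Rims2 to Rims4 was -0.06, -0.12 and -0.14 in the young and 0.23, 0.24 and 0.23 in the aged mice. Its difference of 0.34 was the largest of the 12 ratios, which were chosen after their values had been seen. The ratio of Rims1 to Rims2 was 1.32 to 1.45 in the young and 1.17 to 1.21 in the aged mice. Rims2 by itself already separated the ages, so both ratios in part restate its values.

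Many of the 15 other SNAREs serve Golgi, endosomal, lysosomal or non-neuronal fusion. Of the 15, 11 had positive fold changes, and the median of the 15 was 0.04. Vamp5, or myobrevin, a plasma membrane SNARE known from muscle and other non-neuronal cells, measured 2.62, 1.63 and 2.14 CPM in the young and 3.21, 4.06 and 3.35 CPM in the aged mice. It had the largest fold change of the 56 genes, at 0.75 ± 0.24, with groups that did not overlap but a 95% interval of 0.24 to 1.27 (adjusted p = 0.144). Vamp8, or endobrevin, a SNARE of late endosomes, lysosomes and secretory granules, measured 11.0 to 13.4 CPM in the young and 9.24 to 10.9 CPM in the aged mice, with a fold change of -0.25 ± 0.13 (adjusted p = 0.393).

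Stx4a, the plasma membrane syntaxin that pairs with Munc18c, measured 44.6 to 48.9 CPM in the young and 50.2 to 51.1 CPM in the aged mice, with a fold change of 0.12 ± 0.06. Stx6, a SNARE of the trans-Golgi network and endosomes, measured 86.7 to 92.8 CPM in the young and 93.8 to 102 CPM in the aged mice, with a fold change of 0.11 ± 0.05. The groups did not overlap in either gene, and neither was called (adjusted p = 0.39 and 0.36). The remaining genes of this group had overlapping values and 95% intervals that included 0.

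**Figure D4:**
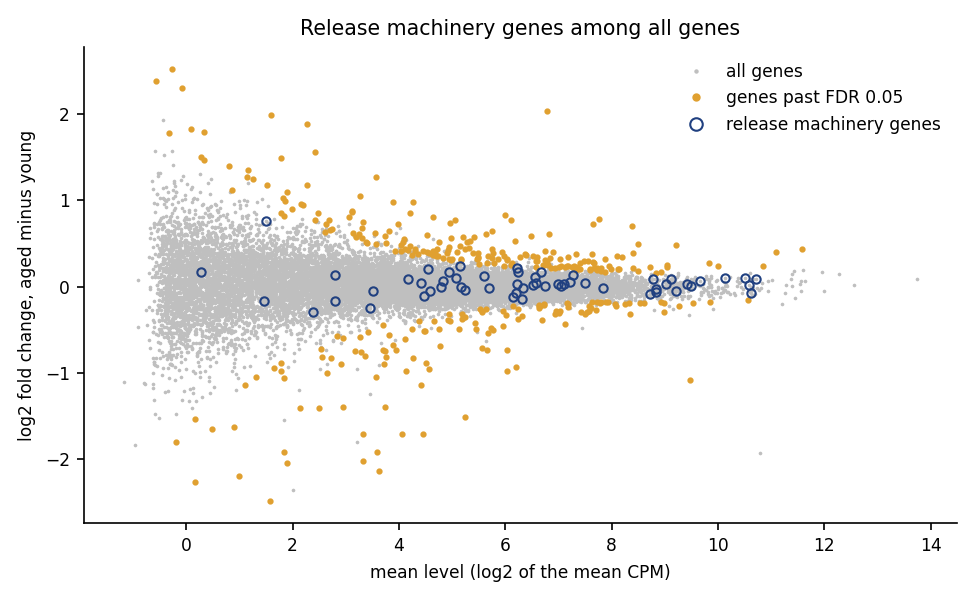
Log2 fold change of aged against young (vertical) against the mean level as log2 CPM (horizontal) for all 16703 genes (grey), the 331 called genes (orange) and the 56 release machinery genes (blue circles). No blue circle coincides with a called gene, and apart from Vamp5 they lie within 0.30 of 0 on the log2 scale.

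Added together, the 56 genes made up 15509, 15473 and 15491 CPM in the young and 15843, 15789 and 15817 CPM in the aged mice, so that the sum was 2.10% higher in the aged hippocampus (15816 ± 26.9 against 15491 ± 18.2 CPM; SD, n = 3). The groups did not overlap. Without Syt1, Vamp2 and Snap25 the sum over the remaining 53 genes was 0.468% higher and the groups overlapped, at 11331 to 11404 CPM in the young and 11361 to 11460 CPM in the aged mice. Those 3 are high-level genes whose aged values all lay above the young ones, so leaving them out had to lower the difference. Genes with lower aged means, such as Cplx2 (1620 CPM in the young, 1537 CPM in the aged mice), stayed in. A sum without those was not computed. By role, the sum was 1.05 times the young level for the synaptic SNAREs, 1.06 times for the calcium-binding synaptotagmins, 1.03 times for the syntaxin-binding proteins and for the other SNAREs and 1.02 times for the other synaptotagmins, and it was 0.977 times for the complexins, 0.983 times for the synapsins, 0.997 times for the vesicle membrane proteins and 0.993 times for the active zone proteins.

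For comparison, 69 other presynaptic genes were listed, of which 68 are in the table, and 1 of them was called. Stxbp5l, or tomosyn-2, which binds syntaxin and SNAP-25 in place of VAMP2 and is a paralog of the member Stxbp5, measured 33.9, 35.4 and 32.5 CPM in the young and 27.6, 26.7 and 27.4 CPM in the aged mice. It fell by 0.32 on the log2 scale (SE 0.07, 95% interval -0.48 to -0.16, adjusted p = 0.0405), and the groups were far apart relative to their spread. The call was kept in 6 of 15 alternative fits and was lost whenever any 1 library was left out, with adjusted p from 0.0188 to 0.516 and a fold change from -0.36 to -0.28. Stxbp5 itself measured 120 to 133 CPM in the young and 123 to 132 CPM in the aged mice, with overlap.

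Of the 68 genes, 33 had positive fold changes, with a median of -0.00492, and at an unadjusted p under 0.05 there were 4 higher (5.88% of the 68, against 8.00% of all genes) and 12 lower (17.6%, against 6.87% of all genes). Among the 26 genes of the active zone, docking and priming, the next smallest p after Stxbp5l belonged to Cadps2, a priming factor of dense-core vesicles (fold change 0.16, adjusted p = 0.155), and Erc2, an active zone scaffold (-0.15, adjusted p = 0.158). Among 11 genes of SNARE recycling, the chaperone gene Hspa8 measured 996 to 1009 CPM in the young and 915 to 921 CPM in the aged mice (fold change -0.13, adjusted p = 0.0870). Its groups did not overlap.

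Of 18 genes of vesicle endocytosis, 11 had negative fold changes. The smallest p values belonged to Snap91, the neuronal clathrin assembly protein AP180 (fold change -0.13, adjusted p = 0.160), and Cltc, the clathrin heavy chain (-0.11, adjusted p = 0.214). Of 13 genes of vesicle cargo, the vesicular glutamate transporter Slc17a8 was low and measured 5.58 to 6.95 CPM in the young and 4.51 to 4.71 CPM in the aged mice (-0.46, adjusted p = 0.190), and Slc17a7, the main glutamate transporter of hippocampal pyramidal cells, 1616 to 1726 against 1530 to 1571 CPM (-0.09, adjusted p = 0.272). The summed level of all 68 genes was 0.979 times the young level, at 19512 to 19771 CPM in the young and 19082 to 19294 CPM in the aged mice, and the groups did not overlap.

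Summed levels of cell type markers differed with age and between libraries. The summed level of 10 pan-neuronal genes was 0.975 times the young level (4621 to 4717 CPM in the young, 4548 to 4557 CPM in the aged mice), with 1 of them, Map2, called lower. The sum of 8 microglial genes was 1.29 times the young level with 6 called higher, and that of 10 interneuron genes 1.07 times with 2, Sst and Npy, called higher. The interneuron sums overlapped between the ages, at 1395 to 1508 CPM in the young and 1501 to 1603 CPM in the aged mice. Sst alone averaged 210 and 262 CPM. Dentate granule cell genes summed to 0.916 times the young level (349 to 407 CPM in the young, 322 to 347 CPM in the aged mice) with 1 of 7, Tdo2, called lower, oligodendrocyte precursor genes to 0.85 times with 1 of 6, Gpr17, called lower, and astrocyte genes to 1.06 times with 1 of 7, Gfap, called higher. None of these 3 sums overlapped between the ages. The precursor sum averaged 162 CPM in the young and 137 CPM in the aged mice, and Gpr17 alone 58.8 and 35.7 CPM. The astrocyte sum averaged 3997 and 4241 CPM, and Gfap alone 493 and 690 CPM, so most of either difference lay in the called gene. Fold changes were positive in 2 of the 6 precursor genes and negative in 3 of the 7 astrocyte genes. Choroid plexus genes, which come from tissue beside the hippocampus, summed to 3922, 3405 and 3814 CPM in the young and 3236, 664 and 932 CPM in the aged mice, with 7 of 10 called lower. With choroid plexus markers as a covariate, 65 genes in all were called but none of the 56, of which 4 were at an unadjusted p under 0.05. Because these markers were themselves lower in aged mice, that fit cannot fully tell their part from that of age.

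Young replicate 2 lay outside the other young mice in summed markers of thalamus and habenula, striatum, dentate gyrus, CA1 and CA3, but not of neocortex. Its 8 thalamus and habenula genes summed to 111 CPM against 147 and 151 CPM in young replicates 1 and 3 (aged: 121, 163 and 133 CPM). Its 6 striatal genes summed to 86.7 CPM against 119 and 105 CPM (aged: 99.7, 108 and 95.3 CPM). Among these, Ppp1r1b measured 62.3 CPM against 81.0 and 77.5 CPM, while Drd1 and Rgs9 lay between the other young mice. Its 7 dentate granule cell genes summed to 407 CPM against 349 and 351 CPM (aged: 347, 322 and 346 CPM). Its CA1 genes summed to 831 CPM against 887 and 901 CPM, and its CA3 genes to 882 CPM against 802 and 829 CPM. Its 6 genes of deep neocortex and subplate summed to 136 CPM, between the other young mice at 140.1 and 123 CPM. It was the lowest of the 6 libraries for Syt2, Rims2, Rims3, Vamp3 and Vamp5, among others. For Cplx2, Syn1, Syn2 and Unc13a, among others, it was the highest. How many of all genes had it lowest or highest was not counted. Without it the fold change was 0.0938 in place of 0.24 for Syt2 and 0.0443 in place of 0.17 for Rims3; none of the 56 was called, and 10 were at an unadjusted p under 0.05. The part of these differences in marker levels in the values of the release machinery genes was not tested.

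**Figure D5:**
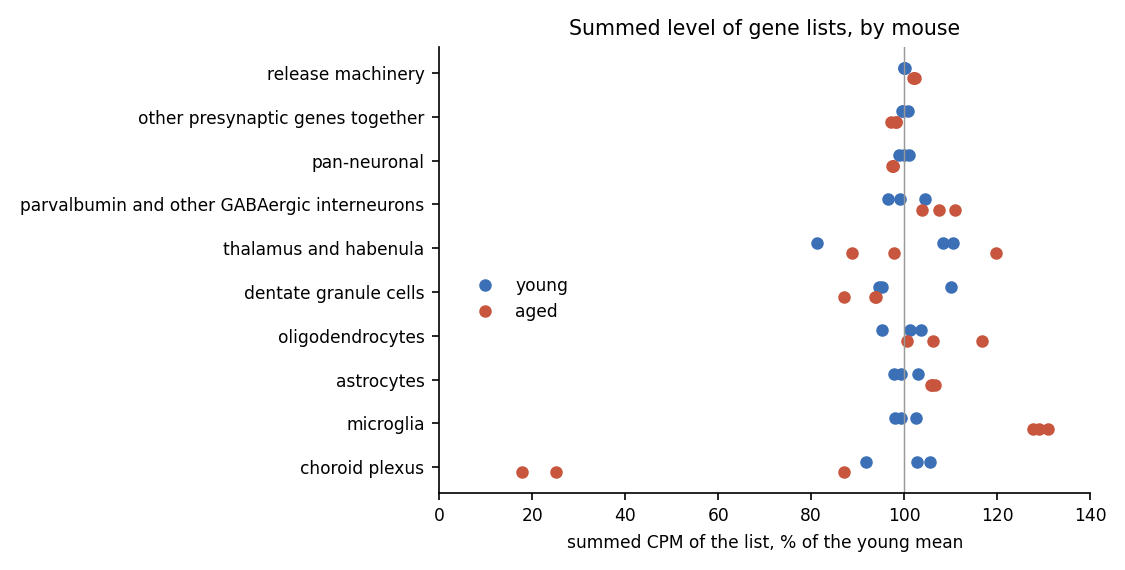
Summed CPM of gene lists in each mouse as a percentage of the young mean (blue, young; red, aged; 3 mice per group). The 56 release machinery genes lie within a few percent of the young mean in every mouse, microglial genes are higher in all aged mice, and choroid plexus genes are lowest in aged replicates 2 and 3.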

How the data were processed

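RNA was sequenced from the hippocampus of 6 mice, 3 per age, with NEBNext Ultra Directional libraries. Per the submitters' processing notes, reads were handled with Trim Galore 0.6.6, STAR 2.7.8a and edgeR 3.32.1 on mouse build mm39; no read counter or low-count filter is named in the sources used here. The authors deposited log2 CPM per mouse after removal of 1 factor of unwanted variation (RUV), and whole adjusted counts could be recovered from the log2 values, so the removed direction was estimated from 1791 genes and entered as a term. The authors' own log2 fold changes, likelihood ratio scores and p-values were also deposited and were not used.

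The log2 CPM values of all 16703 genes were fitted with limma 3.58.1 (trend; R 4.3.3) with terms for age and the removed direction, with 3 residual degrees of freedom, two-sided, with Benjamini-Hochberg adjustment at a false discovery rate of 0.05, and checked on simulated data. CPM in the text is 2 to the power of the deposited value. No counting interval was computed, because depth is unknown. The members and gene lists were chosen with earlier results of these data known. Called members, otherwise the 6 of smallest p, 11 core genes, and in each other list the called genes or the 2 of smallest p, were named; further members were named by level or fold change. Alternatives were fits without the term or the trend, log2(CPM + 1), equal medians, a minimum of 1 CPM, a choroid plexus covariate, aged replicates 2 and 3 as 1 sample, a replicate block, and each library left out. Values of some genes are not reported here by name.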

Additional observations from a re-analysis of the deposited data

How the results depend on the processing

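With 3 mice per age, 1 library each and unknown depth, a gene that missed the threshold is not shown to be unchanged. The p-values rest on the spread between these mice that remained after the authors had removed a factor of unwanted variation. The ranges, SDs and overlaps of groups given above are of the same adjusted values. In limma the spread of each gene is moderated by that of other genes of like level. The other genes gave 12.3 degrees of freedom, against 3 residual ones of each gene. None of the 56 release machinery genes was called in 14 of 15 alternative fits; without the term for the removed direction 1 was called (Stxbp6, 0.17, adjusted p = 0.0496). Of the 56, 34 kept the sign of their fold change in all 15 (21 higher, 13 lower in aged mice) and 22 changed it at least once, of which the largest fold change was 0.17 on the log2 scale. The median of the 56 stayed between 0.00255 and 0.05.

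Over all genes, 523 were called without the term for the removed direction, 0 without a trend of the variance (0 at 1.5-fold; 3 of the 56 at an unadjusted p under 0.05) and 65 with choroid plexus markers as a covariate (47 at 1.5-fold). Leaving out 1 library gave 89 to 300 calls, and 45 to 130 at 1.5-fold. Of the other presynaptic genes, 2 were called without the term, and 0 without a trend, with the covariate, with aged replicates 2 and 3 as 1 sample, and without any 1 library. The causes were not tested.

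Stx1a stood at -0.00504 with choroid plexus markers as a covariate and ranged from -0.0412 to 0.0559 without 1 library at a time. It was uncalled throughout.

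The deposited values showed no pairing of the mice by replicate number. The correlations of same-numbered deviations over 15757 genes were 0.11, -0.22 and -0.41, and 0 of 3 mice correlated best with its own number. With 3 mice per age and a factor of unwanted variation already removed, these values cannot exclude a pairing. With a replicate block 389 genes were called with the term for the removed direction and 510 without it, and none of the 56 was called in either fit.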
